A study of Aspergillus oryzae with 8 samples.

Results

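The comparison was of dithiothreitol (DTT) treatment with no treatment in shaken liquid culture of the mould Aspergillus oryzae, strain RIB40, which serves in food fermentation. Its members were chosen by title: 2 libraries named for liquid culture under endoplasmic reticulum (ER) stress were set against 2 named as liquid control, which makes 4 of the 8 libraries of the series. The other 4 libraries hold the same pair of conditions for mycelium on a solid surface. They entered the filter and the estimate of spread behind the tests, and their levels are given only where named. All libraries came from this strain in a medium with 2.0% glucose and nitrate, and the protocol describes oligo-dT selection for each, although the molecule label reads polyA RNA for replicate 1 and total RNA for replicate 2. The control mycelium grew in 30 mL of medium at 30 °C and 200 rpm for 40 h, to the middle of the growth phase. The treated culture received DTT to 20 mmol/L, and its labels give neither growth time, temperature nor length of exposure. In each condition replicate 1 was made with inserts of 500 bp and replicate 2 with inserts of 200 bp. Whether the 2 libraries of a condition came from separate cultures is not stated. The p-values reflect only the spread between such libraries, pooled over the conditions of both cultures, and that spread may be technical. Fewer cells of a kind and less RNA per cell cannot be told apart in such bulk RNA.

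DTT is a reducing agent that breaks the disulfide bonds which secreted and membrane proteins form in the ER. In fungi, unfolded proteins there are sensed by the membrane kinase and nuclease Ire1, which splices the messenger RNA of the transcription factor HacA, and HacA in turn raises genes for folding, quality control and secretion. Filamentous fungi secrete large amounts of enzyme from their growing tips, and A. oryzae is cultured for these enzymes.

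The 4 liquid libraries held 5880753 to 8750217 reads on genes, of which 15.7% to 25.2% fell on rRNA genes. Levels are given as CPM, the reads of a gene scaled to library size with TMM factors. Fold changes are on the log2 scale with their SE, and a gene is said to rise or fall only where edgeR's quasi-likelihood test gave a Benjamini-Hochberg adjusted p under 0.05 over all genes tested. A level of 0.317 to 0.678 CPM, depending on the library, was worth 3 reads. The 2 control libraries correlated at 0.92 across genes in log2 CPM and the 2 DTT libraries at 0.90. Among the genes that rose the 2 DTT libraries differed: replicate 1 had the higher level of the pair in 608 of 841 (72.3%), against 48.1% of all genes tested.

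DTT changed 1885 of 9438 genes tested, which is 20.0%. Of these, 841 rose (8.91% of genes tested) and 1044 fell (11.1%). The tallies of gene lists below are to be read against these shares. Both DTT libraries lay above both controls in 28.2% of genes tested and below them in 31.5%, so a lack of overlap by itself was common. All 1885 called genes were separated in this way, so separation adds nothing to a call. Changes were large: 391 of the risers moved by more than 8-fold and 85 by more than 64-fold, and among the fallers 410 and 52 did so. The median log2 change was 2.87 among risers and -2.66 among fallers, or 2.82 and -2.62 with genes at 0 reads in 1 condition set to their bounds, while over all genes tested it was -0.03. Genes with a symbol in the reference were called as often as those without, 140 of 695 (20.1%) against 1745 of 8743. Quintiles by mean level were formed with the DTT libraries included, so risers moved up and fallers down in that ranking. They do not show how often genes of a given control level changed. Among the 1888 genes of the top quintile, 17.4% rose and 9.85% fell. In the middle quintile 15.1% fell, and in the bottom quintile 3.39% rose and 6.83% fell. The bottom quintile reached down to a mean of 0 CPM, because the filter ran over both cultures. Genes without reads in liquid culture count among the genes tested but could not be called. A filter on the liquid libraries alone kept 8585 genes.

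**Figure D1:**
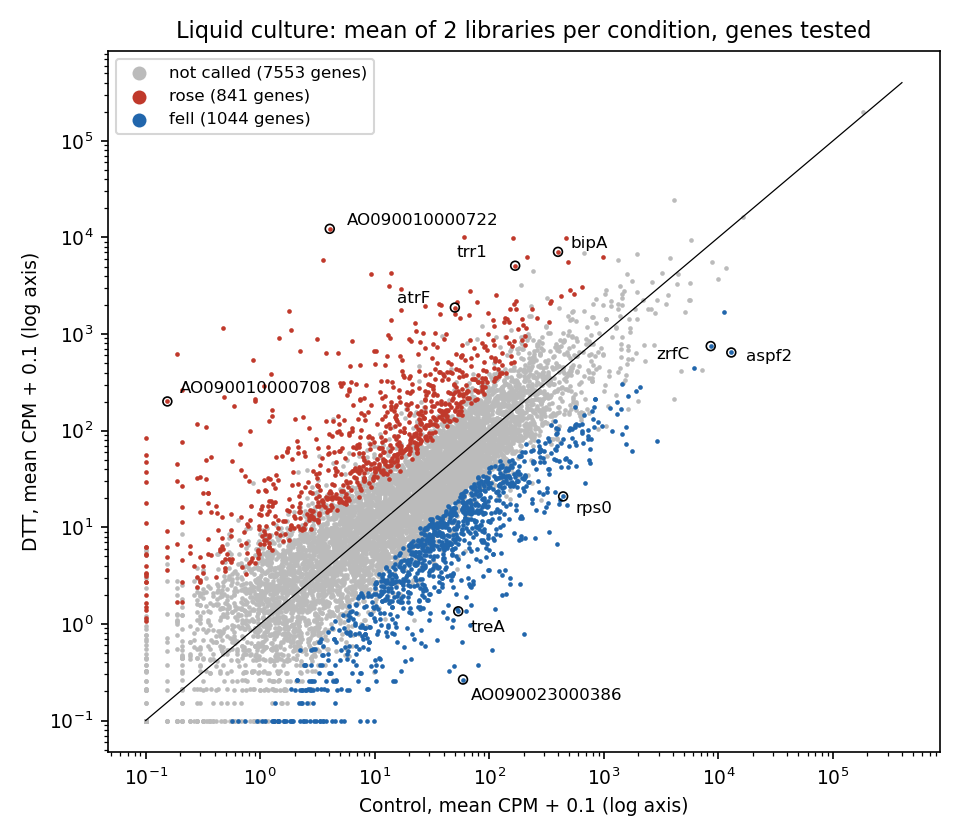
Mean level of each tested gene in the 2 liquid control libraries (horizontal axis, CPM plus 0.1, log scale) and the 2 liquid DTT libraries (vertical axis, same scale), with called genes in colour and genes named in the text circled. The 841 genes that rose lie above the line of equal levels and the 1044 that fell below it, with AO090010000722 (11.59) among the farthest above it and aspf2 and zrfC at the high end of those that fell.

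The summed levels of these genes in liquid culture are a description, since the genes were chosen on the same libraries. The 841 risers summed to 2.70% and 2.60% of the TMM-scaled library size in the controls and to 39.7% and 18.3% under DTT. With genes chosen in this way the groups could not overlap, and DTT replicate 1 stood highest. These sums and those below are not shares of reads. The TMM factors of DTT replicates 1 and 2 were 0.730 and 1.08. The risers' share of reads was therefore below 39.7% in replicate 1 and above 18.3% in replicate 2, with a smaller gap between them. The 1044 fallers summed to 16.9% and 13.5% in the controls and to 2.11% and 2.09% under DTT. In solid culture, whose libraries did not enter the fold changes of the liquid comparison but shared its filter and its estimate of spread, the risers summed to 2.59% and 2.80% in the controls and to 12.9% and 14.5% under DTT. The fallers summed there to 13.2% and 16.2% without DTT and to 4.37% and 4.42% with it. With the insert size as a block in the fit 2984 genes were called (1338 or 14.2% up, 1646 or 17.4% down), among them 1881 of the 1885. Without 1 library, the count was 614 (control replicate 1), 901 (DTT replicate 1), 732 (control replicate 2) or 1581 (DTT replicate 2), and 398 genes were called in all 4 of these fits, 131 up and 267 down.

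**Figure D2:**
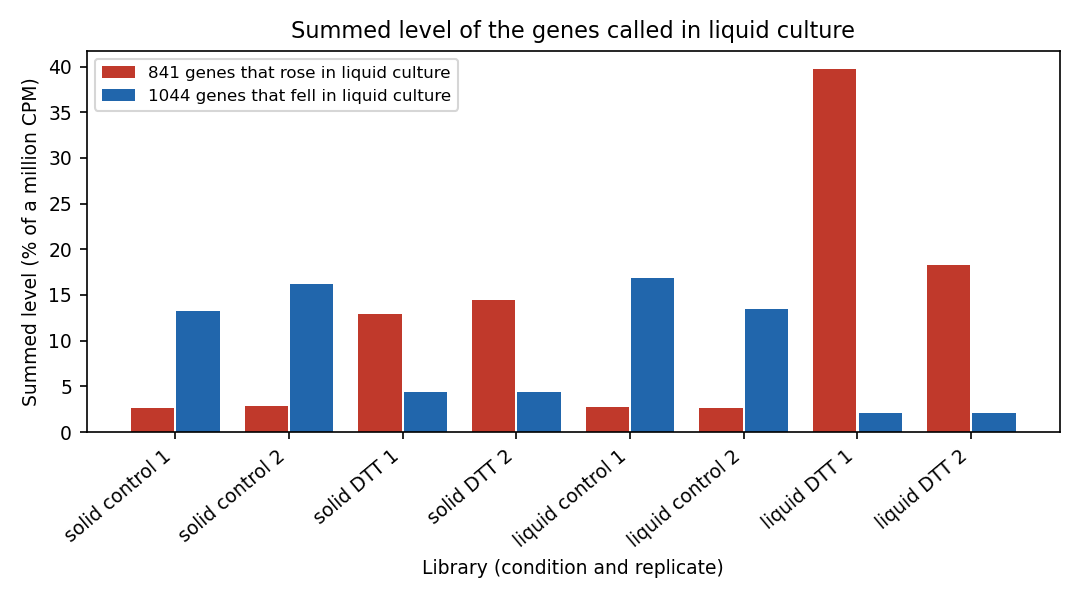
Summed level of the genes that rose (red) and fell (blue) under DTT in liquid culture, in each of the 8 libraries. Levels are percentages of the library size scaled with TMM factors and are not shares of reads. The genes were chosen on the liquid comparison, so the liquid bars are a description: risers reach 39.7% and 18.3% under DTT in liquid culture and 12.9% and 14.5% under DTT on the solid surface, from 2.59% to 2.80% in the 4 controls.

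The ER folding genes rose together. The gene bipA (AO090003000257), for the Hsp70-type chaperone inside the ER, stood at 312 and 483 CPM in the control libraries and at 5632 and 8550 CPM under DTT, a log2 change of 4.16 ± 0.80. The protein disulfide isomerase gene pdiA (AO090001000733) went from 346 and 493 to 1933 and 3019 CPM (2.56 ± 0.66) and the calnexin gene clxA (AO090009000313) from 236 and 442 to 1117 and 3059 CPM (2.62 ± 0.73). In all 3 genes replicate 2 was the higher library in each condition. Of the pathway's regulators, hacA (AO090124000074) stood at 230 and 254 CPM in the controls and at 402 and 356 CPM under DTT (0.65 ± 0.48, edgeR adjusted p = 0.369), and the sensor gene ireA (AO090005000934) at 183 and 192 against 140 and 137 CPM (-0.43 ± 0.38, adjusted p = 0.447). Read counts per gene do not show splicing of the hacA messenger. Without control replicate 1 the edgeR adjusted p of bipA, pdiA and clxA were 0.0779, 0.160 and 0.195. Without control replicate 2 they were 0.0590, 0.101 and 0.0984, and without DTT replicate 2 those of pdiA and clxA were 0.0537 and 0.102.

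Of 5 genes of ER-associated degradation 1 was called, near the 20.0% called over all genes tested, and 2 with the block (median 1.02). The gene hrdA (AO090005000658), the ubiquitin ligase of the ER membrane, rose from 67.5 and 59.5 to 228 and 286 CPM (2.02 ± 0.45). The Derlin gene derA (AO090701000076) stood at 24.6 and 18.6 against 62.3 and 76.4 CPM (1.68 ± 0.57, edgeR adjusted p = 0.0651, or 0.0203 with the block). The ATPase gene cdc48, its cofactor gene npl4 and the glycanase gene png1 stood at 1.02 ± 0.62, -0.14 ± 0.41 and -0.08 ± 0.43. The signal peptidase gene sec11 stood at 0.93 ± 0.37 (adjusted p = 0.103, and 0.0408 with the block). None of 16 proteasome genes was called, with or without the block, and their median was -0.14. Without control replicate 1 the edgeR adjusted p of hrdA was 0.0951, and without control replicate 2 it was 0.100.

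Chaperones outside the ER did not move as a group. Of 10 genes for cytosolic and mitochondrial chaperones 1 rose, hsp78 (AO090038000288), which encodes a mitochondrial disaggregase. It went from 29.1 and 48.6 to 441 and 236 CPM (3.12 ± 0.53). The list's median was 0.23, and hsp90 and hsp70 overlapped between the conditions, at -0.43 ± 0.72 and 0.49 ± 0.85. The edgeR adjusted p of hsp78 was 0.0555 without control replicate 1.

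Genes of thiol and peroxide defence held 3 risers among 9 tested (median 1.55), or 5 in the block fit. Thioredoxin reductase, which returns electrons to thioredoxin, is encoded by trr1 (AO090009000289), and its transcripts went from 177 and 160 to 6848 and 3342 CPM (4.92 ± 0.77). The catalase gene fgaCat (AO090011000540) went from 6.42 and 16.1 to 418 and 230 CPM (4.83 ± 0.66) and a further catalase gene, cat1 (AO090120000068), from 502 and 516 to 4126 and 1628 CPM (2.50 ± 0.67). In these 3 genes DTT replicate 1 was the highest library. The superoxide dismutase gene sod2 stood at 132 and 217 against 467 and 944 CPM (2.02 ± 0.74, edgeR adjusted p = 0.0858, and 0.0128 with the block). Glutathione reductase, encoded by glr1, overlapped between the conditions (-0.09 ± 0.45). The call of cat1 was lost without control replicate 1 (edgeR adjusted p = 0.154), control replicate 2 (0.140) or DTT replicate 1 (0.108), while trr1 and fgaCat were called in all 4 such fits.

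**Figure D3:**
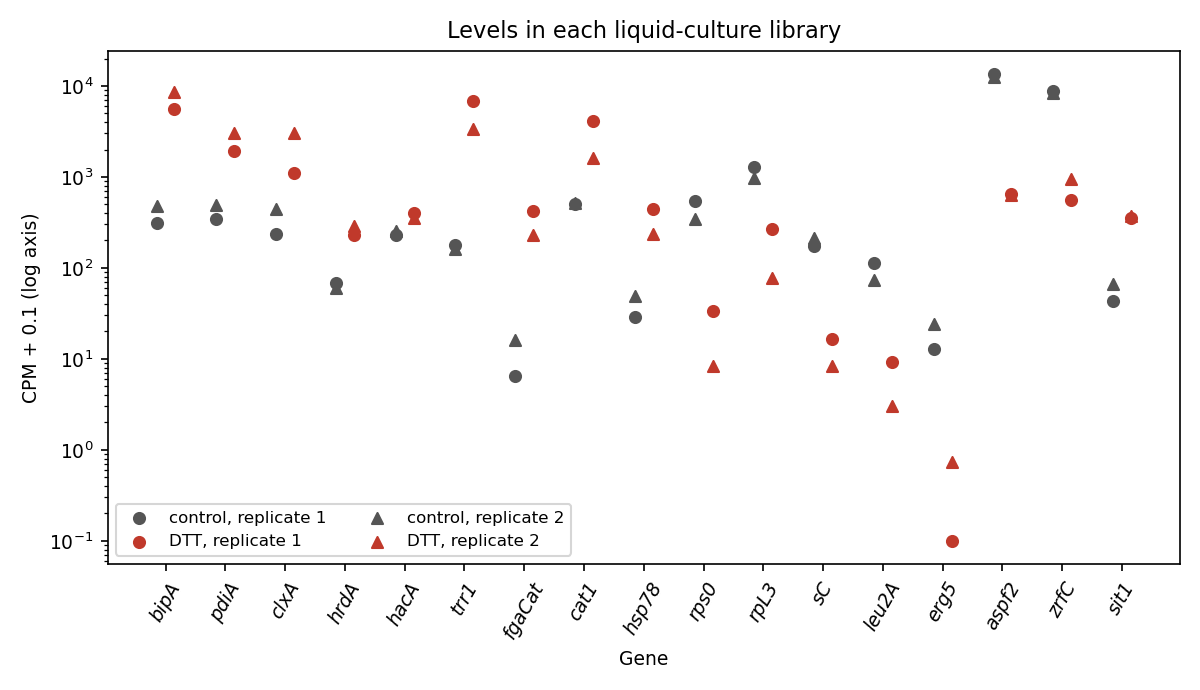
Level of 17 genes in each liquid library (CPM plus 0.1, log scale), grey for control and red for DTT, circles for replicate 1 and triangles for replicate 2. The ER folding genes bipA, pdiA and clxA and the redox genes trr1, fgaCat and cat1 are higher in both DTT libraries, hacA lies within 230 to 402 CPM throughout, and the ribosomal protein, sulfur, leucine and sterol genes, aspf2 and zrfC are lower.

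None of 4 oligopeptide transport genes was called (median 0.73). Exporters included 2 of the strongest risers among genes with a symbol. The ABC transporter gene atrF (AO090701000115) went from 47.3 and 52.6 to 2136 and 1625 CPM (5.23 ± 0.64), and mdr1 (AO090009000651), of the same family, from 60.1 and 75.3 to 411 and 1327 CPM (3.68 ± 0.72). The list of 7 exporters had a median of 1.70, with 2 risers and no faller (with the block 3 rose, abcB among them, and atrA fell), and mdr2 stood at 0.02 ± 0.47. Among 6 genes of DNA repair (median 1.48) rad7 (AO090026000832), known from yeast for nucleotide excision repair, rose from 29.1 and 40.2 to 859 and 610 CPM (4.40 ± 0.55). With the insert size as a block 3 of these 6 rose. The call of mdr1 was lost without control replicate 1 (edgeR adjusted p = 0.0776) or control replicate 2 (0.0587), and atrF and rad7 were called in all 4 such fits.

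Other genes with a symbol that rose steeply included aspf34 (AO090003001484), named after an allergen, from 2.14 and 1.10 to 98.7 and 23.6 CPM (5.26 ± 1.38). The genes mrsA (AO090003000367) and hmt1 (AO090026000661) rose by 4.18 ± 0.69 and 3.67 ± 0.59 and were called whichever liquid library was left out. The gene hmgX (AO090003000209) went from 9.99 and 7.12 to 294 and 18.6 CPM (4.19 ± 1.08), so its rise came mainly from DTT replicate 1. Without that library its edgeR adjusted p was 0.237, and without control replicate 1 or 2 it was 0.115 and 0.132. For aspf34 the values were 0.113 without DTT replicate 1, 0.113 without control replicate 1 and 0.144 without control replicate 2. The genes egl3 (3.55 ± 0.71) and rscE (3.40 ± 0.62) lost their call without control replicate 1 (0.0833 and 0.0668).

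In the secretory pathway beyond the ER lumen, no gene of 10 for vesicle transport was called (1 rose with the insert size as a block), with a median of 0.50. Of 16 tested genes for protein glycosylation 3 fell and none rose (median -0.92; 6 fell with the block). They were cwh41 (AO090701000141), the glucosidase that trims new N-glycans, from 582 and 541 to 110 and 119 CPM (-2.29 ± 0.46), the mannose-6-phosphate isomerase gene pmi1 (AO090012000554), from 107 and 194 to 27.6 and 37.1 CPM (-2.22 ± 0.46), and the mannosyltransferase gene alg3 (AO090120000319) (-1.73 ± 0.44). The transferase genes pmt1 and pmt4, which start O-mannosylation, stood at -0.32 ± 0.43 and 0.08 ± 0.43. Without DTT replicate 1 the edgeR adjusted p of cwh41, pmi1 and alg3 were 0.0537, 0.0680 and 0.0680. That of pmi1 was 0.0699 without control replicate 2, and that of alg3 was 0.118, 0.0747 and 0.0915 without control replicate 1, control replicate 2 and DTT replicate 2.

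Autophagy genes held 1 riser and 1 faller among 12, near the 20.0% called over all genes tested (median 0.61, with 3 risers in the block fit). The kinase gene atg1 (AO090023000647), which starts autophagosome formation, rose from 93.5 and 133 to 513 and 549 CPM (2.23 ± 0.46). The vacuolar mannosidase gene ams1 (AO090005001458) fell from 34.6 and 31.3 to 1.36 and 6.55 CPM (-2.996 ± 0.68). Of 12 genes for peroxisome assembly (median -0.24) pex13 (AO090005000629), part of the import machinery, rose from 81.0 and 70.0 to 480 and 206 CPM (2.18 ± 0.52). The edgeR adjusted p of atg1, ams1 and pex13 were 0.106, 0.0626 and 0.100 without control replicate 1, and 0.0558, 0.0536 and 0.110 without control replicate 2. That of pex13 was 0.0790 without DTT replicate 1.

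All 5 cytosolic ribosomal protein genes with a symbol had lower levels in both DTT libraries, against 31.5% of all genes tested. Of these 5 genes 4 fell, or 5 with the block (median -2.72). The gene rps0 (AO090012000801) of the small subunit went from 539 and 344 to 33.2 and 8.34 CPM (-4.42 ± 0.78), and rpL3 (AO090026000458) of the large subunit from 1285 and 982 to 266 and 77.8 CPM (-2.72 ± 0.77). The genes rpl17 and rps23 fell by 3.10 ± 0.88 and 2.45 ± 0.72, and rps1 stood at -2.21 ± 0.81 (edgeR adjusted p = 0.0836). Among 28 genes for ribosome assembly 4 fell and none rose (8 fell with the block), a share near the 11.1% of all genes tested that fell, with a median of -0.62 and 26 values below 0. These 4 were nop58 (AO090012000796) of the snoRNA-guided methylation complex (145 and 105 against 33.9 and 21.5 CPM, -2.18 ± 0.50), nop9 (-2.19 ± 0.54), rex4 (-2.02 ± 0.51) and nop7 (-1.87 ± 0.55).

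None of 7 translation initiation genes was called (3 fell with the block), although all 7 values lay below 0 (median -1.10). Among 8 genes for tRNA modification all values were below 0 as well (median -0.95) and trm10 fell (-1.63 ± 0.44; 3 fell with the block). The mitochondrial ribosome list of 3 held 1 riser, the RNA helicase gene mrh4 (1.66 ± 0.44), and with the block also 1 faller, rsm25. Splicing genes did not share a direction: of 14 (median 0.01) the branchpoint-binding gene bbp (AO090003000632) rose from 21.2 and 49.1 to 279 and 190 CPM (2.73 ± 0.62) and lea1 of the U2 particle fell (-1.52 ± 0.46). With the block 2 rose and 2 fell.

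Of the genes of protein synthesis and RNA processing named as called here, rps0 was called whichever liquid library was left out. Without control replicate 1 the edgeR adjusted p of the others lay between 0.0747 (nop9) and 0.180 (rps23), with 0.124 for rpL3, 0.168 for rpl17, 0.0894 for nop58, 0.132 for rex4, 0.147 for nop7, 0.126 for trm10, 0.154 for mrh4, 0.113 for bbp and 0.177 for lea1. Without control replicate 2 those over 0.05 were rpL3 (0.0892), rpl17 (0.0579), rps23 (0.0745), nop9 (0.0777), nop7 (0.0947), trm10 (0.0960), mrh4 (0.117) and lea1 (0.0949). Without DTT replicate 1 they were nop9 (0.103), rex4 (0.108), nop7 (0.0782), trm10 (0.0655), bbp (0.0638) and lea1 (0.103). Without DTT replicate 2 they were rpL3 (0.113), rpl17 (0.107), rps23 (0.130), nop58 (0.0707), nop9 (0.0534), nop7 (0.154), trm10 (0.120), mrh4 (0.0706) and lea1 (0.136).

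Of 16 amino acid synthesis genes 3 fell and none rose (median -0.86), against 11.1% and 8.91% of all genes tested. All 3 belong to the branched-chain pathways. The dihydroxyacid dehydratase gene ilv3 (AO090023000127) went from 38.5 and 53.5 to 4.29 and 1.27 CPM (-4.12 ± 0.65), the isopropylmalate dehydrogenase gene leu2A (AO090005001122) from 112 and 73.1 to 9.03 and 2.96 CPM (-3.98 ± 0.64), and luA (AO090026000524) from 279 and 366 to 22.6 and 57.6 CPM (-3.003 ± 0.63). The similarly named ilv3B (-0.69 ± 0.70) and ilv3C (3.70 ± 1.34, from 0 and 0.438 to 5.42 and 1.69 CPM) were not called. In sulfur metabolism 2 of 4 genes fell (median -2.08). The ATP sulfurylase gene sC (AO090020000349), the entry step of sulfate assimilation, went from 175 and 210 to 16.3 and 8.34 CPM (-3.98 ± 0.58), and mde1 of methionine salvage from 114 and 58.5 to 12.4 and 15.8 CPM (-2.61 ± 0.51). The edgeR adjusted p of luA was 0.0622 without DTT replicate 1, and that of mde1 was 0.0567 without DTT replicate 1 and 0.0604 without control replicate 1.

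Nucleotide synthesis, a list drawn up after the values of its members had been seen, held 6 fallers and 1 riser among 11 tested genes (median -1.78). Of the purine branch, adB (AO090005001150), for adenylosuccinate synthase, went from 337 and 192 to 37.0 and 22.4 CPM (-3.16 ± 0.53), gua1 (AO090026000141), for GMP synthase, from 445 and 217 to 34.1 and 36.5 CPM (-3.23 ± 0.58), and ade13 (AO090026000450), for adenylosuccinate lyase, from 166 and 245 to 35.2 and 30.3 CPM (-2.65 ± 0.51). Of the pyrimidine branch, pyrG (AO090011000868), for orotidine phosphate decarboxylase, went from 56.4 and 35.7 to 6.10 and 2.32 CPM (-3.49 ± 0.59) and the kinase gene ura6 (AO090026000815) from 103 and 71.8 to 16.5 and 11.1 CPM (-2.67 ± 0.46). These 5 genes were called whichever liquid library was left out. The gene ade1 fell by 1.78 ± 0.43, with an edgeR adjusted p of 0.0624 to 0.0844 in the 4 fits without 1 library, and pyr2 (AO090102000166) rose from 30.3 and 83.3 to 484 and 663 CPM (3.33 ± 0.60; 0.0560 without control replicate 1).

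The sterol and isoprenoid pathway held 7 fallers and 1 riser among 17 genes (median -1.20), at steps both before and after squalene. Of the mevalonate branch, mvd1 (AO090023000862) went from 91.4 and 83.0 to 13.1 and 21.1 CPM (-2.34 ± 0.43), the isomerase gene idi1 (AO090023000500) from 104 and 68.7 to 23.3 and 16.1 CPM (-2.14 ± 0.42) and the farnesyl diphosphate synthase gene erg20 (AO090102000358) from 103 and 114 to 27.6 and 22.5 CPM (-2.12 ± 0.46). In the same branch the phosphomevalonate kinase gene erg8 (AO090010000471) rose from 64.6 and 60.8 to 297 and 198 CPM (1.98 ± 0.43). Of the late steps, the desaturase gene erg5 (AO090003000954) went from 12.8 and 23.8 to 0 and 0.634 CPM (-5.49 ± 1.12), and erg2, erg4 and erg24B fell by 2.76 ± 0.60, 2.43 ± 0.59 and 2.08 ± 0.54. The reductase gene hmg1, often the controlling step, was not called (68.0 and 98.3 against 60.3 and 47.8 CPM, -0.62 ± 0.43), and neither was erg4A (0.11 ± 0.58). Only mvd1 among the 8 called genes was called in all 4 fits without 1 library. Without control replicate 1 the edgeR adjusted p were 0.0640 (idi1), 0.0553 (erg20), 0.0582 (erg2), 0.0660 (erg4), 0.0565 (erg24B) and 0.0956 (erg8). Without control replicate 2 they were 0.0585 (erg20), 0.0510 (erg2), 0.0870 (erg4), 0.137 (erg24B) and 0.0902 (erg8). Without DTT replicate 1 they were 0.0540 (erg5), 0.0527 (erg20) and 0.0534 (erg8), and without DTT replicate 2 0.0545 (erg20), 0.0686 (erg4) and 0.0973 (erg24B).

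Central carbon and respiratory genes mostly missed the test. Of 5 genes of glycolysis and gluconeogenesis, acuF (AO090003000174), for phosphoenolpyruvate carboxykinase of gluconeogenesis, rose from 95.3 and 75.5 to 1298 and 313 CPM (3.24 ± 0.84), with the block glkA also fell, and gpdA stood at 7610 and 10053 against 6657 and 4369 CPM (-0.68 ± 0.82). None of 4 genes of the tricarboxylic acid cycle (median 0.87) and none of 8 of the respiratory chain (median -0.60) was called, and with the block 1 and 3 of them were. The trehalase gene treA (AO090120000052), which breaks down the storage sugar trehalose, had one of the deepest falls among genes with a symbol, from 28.7 and 78.3 to 1.13 and 1.37 CPM (-5.38 ± 0.64). Other such falls were in osm1, known in yeast for fumarate reductase (202 and 305 against 12 and 18 CPM, -4.08 ± 0.47), and gatA, for a transaminase of 4-aminobutyrate (-4.15 ± 0.63). The call of acuF was lost without control replicate 1 (edgeR adjusted p = 0.121), control replicate 2 (0.133) or DTT replicate 1 (0.124), and treA, osm1 and gatA were called in all 4 fits.

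Among 13 cell division genes 4 fell and none rose (median -1.32; 9 fell with the block), and 12 of the 13 values lay below 0. They were the kinetochore gene nuf2 (34.6 and 44.8 against 5.87 and 10.8 CPM, -2.24 ± 0.46), psf2 of the replication complex GINS (-3.42 ± 0.80), bud4, which marks sites of septation (-2.46 ± 0.58), and nimX, the cyclin-dependent kinase gene of the cell cycle (29.3 and 28.2 against 9.94 and 8.98 CPM, -1.60 ± 0.39). Septins, the filament proteins that gather at septa and tips, formed a list drawn up after their values had been seen. Of their 5 genes 4 fell (median -1.89; 5 with the block): aspC (AO090102000511) from 335 and 305 to 30.3 and 21.0 CPM (-3.64 ± 0.47), aspE from 6.07 and 9.10 to 1.13 and 0.634 CPM (-3.15 ± 0.82), aspA from 236 and 222 to 66.9 and 57.1 CPM (-1.89 ± 0.41) and aspB from 343 and 353 to 104 and 125 CPM (-1.61 ± 0.43). The remaining gene aspD stood at 363 and 453 against 118 and 192 CPM (-1.40 ± 0.47, edgeR adjusted p = 0.0652). In aspD too both DTT libraries lay below both controls, as they did in 31.5% of all genes tested.

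Of these genes aspC was called in all 4 fits without 1 library. Those of aspA, aspB, aspE and nimX were lost in each, with edgeR adjusted p of 0.0511 to 0.0655 for aspA, 0.0655 to 0.116 for aspB, 0.0699 to 0.118 for aspE and 0.0634 to 0.0939 for nimX. The calls of nuf2 and bud4 were lost without DTT replicate 1 (0.0554 and 0.101) or control replicate 2 (0.0628 and 0.118), and that of psf2 without control replicate 1 (0.107), DTT replicate 1 (0.0720) or DTT replicate 2 (0.0861).

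At the cell wall 1 of 27 genes rose and 2 fell, a share under the 20.0% called over all genes tested (median 0.48, and 4 rose with the block). The glucan transferase gene bgt2 (AO090009000117) went from 423 and 665 to 3799 and 1452 CPM (2.27 ± 0.68). The gene agm1 (AO090001000429), needed for the chitin precursor, went from 172 and 211 to 42.7 and 21.7 CPM (-2.58 ± 0.46), and the glucanase gene eng2 (AO090023000083) fell by 2.28 ± 0.54. Of 7 peptidase genes dppIV (AO090023000602) fell (21.8 and 35 against 0.903 and 2.43 CPM, -3.999 ± 0.69), and with the block lap1 did too. Among 12 tested plant wall hydrolases, enzymes that the fungus secretes, manF and pgxC fell (median of the list -0.36). The gene manF went from 10.3 and 6.91 to 2.03 and 1.90 CPM (-2.12 ± 0.60). In pgxC (3.39 and 1.32 against 0.226 and 0.317 CPM, -2.96 ± 0.90) each DTT library held at most 3 reads. Among genes of spore formation, another developmental stage, veA, of the velvet regulators, fell (123 and 113 against 37.5 and 26.8 CPM, -1.88 ± 0.40) and the regulator brlA stayed between 1.10 and 2.86 CPM in all 4 libraries (median of 11 genes 0.11; with the block 2 rose and 2 fell). The calls of agm1 and dppIV held in all 4 fits without 1 library. That of bgt2 was lost without control replicate 1 (edgeR adjusted p = 0.221), control replicate 2 (0.126) or DTT replicate 1 (0.168), and that of eng2 without control replicate 1 (0.129), DTT replicate 1 (0.0560) or DTT replicate 2 (0.0797). That of veA was lost without control replicate 1 (0.0659), control replicate 2 (0.0527) or DTT replicate 2 (0.0522). In each such fit manF (0.0891 to 0.188) and pgxC (0.0729 to 0.241) lost theirs.

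A pair of neighbouring genes was among the most abundant of the controls and fell. In A. fumigatus aspf2 is known as an allergen gene and zrfC as a zinc transporter gene, both induced when zinc is scarce. In liquid culture aspf2 (AO090005000939) went from 13490 and 12420 to 655 and 634 CPM (-4.33 ± 1.03) and zrfC (AO090005000940) from 8872 and 8264 to 558 and 942 CPM (-3.51 ± 0.84). The conditions were far apart in both genes. The further zinc transporter genes zrfA, zrfB and zrfD stood at -1.59 ± 0.70, -0.29 ± 0.51 and -0.61 ± 0.55, none of them called, although zrfA was with the block (edgeR adjusted p = 0.0492). Of 7 genes named after allergens, aspf34 rose and aspf2 fell (median -1.32). Each call of the pair was lost in all 4 fits without 1 library, with edgeR adjusted p of 0.0565 to 0.0927 for aspf2 and 0.0548 to 0.0999 for zrfC.

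Iron genes split. The siderophore transporter gene sit1 (AO090005000471) rose from 42.6 and 65.9 to 354 and 370 CPM (2.74 ± 0.49), and it was the only 1 of 12 tested iron uptake genes to be called (2 with the block; median 0.34). The transporter gene mirC stood at 85.1 and 169 against 292 and 505 CPM (1.65 ± 0.53, edgeR adjusted p = 0.0557), and the regulators sreA and hapX at 0.56 ± 0.40 and 0.12 ± 0.41. Iron-sulfur cluster assembly, a list drawn up after its values had been seen, held genes moving both ways. The cytosolic assembly genes nar1 (AO090003001020; 36.9 and 38.6 against 245 and 158 CPM, 2.41 ± 0.45) and nbp35 (AO090012000208; 29.3 and 32.4 against 352 and 53.2 CPM, 2.71 ± 0.75) rose. The mitochondrial exporter gene atm1 (AO090003000411; 146 and 202 against 21.9 and 30.7 CPM, -2.72 ± 0.45) and tah18 (-1.77 ± 0.45), which feeds electrons to the cytosolic assembly, fell, and isa1 and cia1 were not called, although cia1 fell with the block (edgeR adjusted p = 0.0216). The call of sit1 was lost without control replicate 1 (edgeR adjusted p = 0.0689), that of nar1 without control replicate 1 or 2 (0.0646, 0.0534), that of nbp35 without control replicate 1, DTT replicate 1 or control replicate 2 (0.158, 0.260, 0.132) and that of tah18 without control replicate 1 or DTT replicate 1 (0.149, 0.108).

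Of 19 tested secondary metabolism genes 3 rose and none fell (median 0.39; 3 fell with the block). The gene fmpC (AO090003001279) had 0 reads in both control libraries and 72 and 179 reads under DTT (16.3 and 18.9 CPM), at least 88.7-fold higher against a floor of 3 reads over both controls. The peptide synthetase gene nrps1 (AO090038000390) went from 40.1 and 49.8 to 458 and 343 CPM (3.16 ± 0.74). The gene fmaE (AO090010000638) had 0 reads in the controls and 5 and 14 under DTT, at least 6.71-fold higher. The further fmp genes fmpA and fmpF did not share the rise of fmpC, at -0.29 ± 0.71 and -1.79 ± 0.79. The call of nrps1 was lost without control replicate 1 (edgeR adjusted p = 0.116), DTT replicate 1 (0.0620) or control replicate 2 (0.0911), and that of fmaE without control replicate 1 (0.0779), control replicate 2 (0.0985) or DTT replicate 2 (0.0545), while fmpC was called in all 4 fits.

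**Figure D4:**
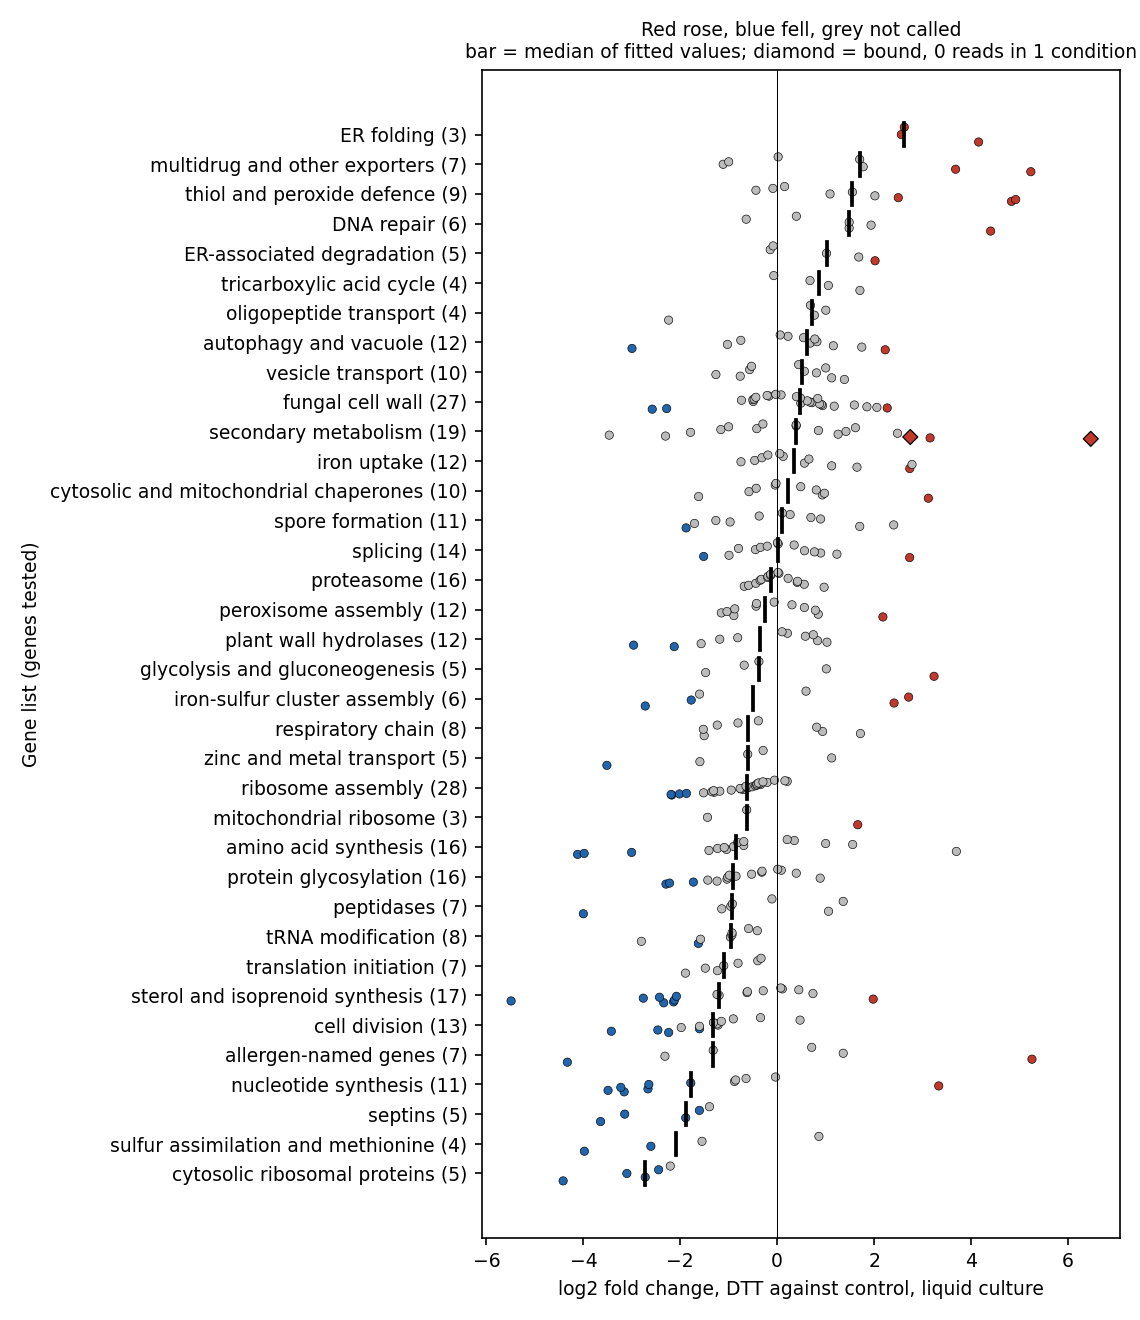
Log2 change of each member of the gene lists with at least 3 tested members, DTT against control in liquid culture, ordered by the list's median (bar). Diamonds are bounds for called genes with 0 reads in 1 condition, and uncalled genes with 0 reads in 1 condition are not drawn. ER folding has the highest median (2.62) and cytosolic ribosomal proteins the lowest (-2.72), while proteasome and splicing genes lie around 0.

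Like most genes tested (8743 of 9438), most called genes had no symbol (1745 of 1885), 794 of them risers and 951 fallers. Such genes are given here by locus tag and with no role, since the reference names none. Among called genes the highest mean level under DTT was that of AO090010000722, with 2.86 and 5.04 CPM in the controls and 17268 and 7293 CPM under DTT (11.59 ± 1.38). The gene AO090003000124 went from 4.64 and 2.19 to 10498 and 1049 CPM (10.73 ± 1.49) and AO090701000429 from 0.535 and 0.219 to 2125 and 169 CPM (11.60 ± 1.51). All 3 were called whichever liquid library was left out, and in all 3 DTT replicate 1 was the higher DTT library. The same held for AO090009000465, which went from 1.07 and 1.64 to 1708 and 114 CPM (9.35 ± 1.36).

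Some risers were close to silent in the controls. With 1 read over both controls AO090010000708 reached 2566 under DTT (244 and 157 CPM), a ratio of 2720 with an exact 95% binomial interval of 488 to 107458, and its neighbour AO090010000707 went from 2 to 1554 reads (130 and 103 CPM; ratio 823, 228 to 6806). In both, the 2 DTT libraries were close to each other. In contrast AO090120000504 went from 1 to 5589 reads, of which 5453 lay in DTT replicate 1 (1232 and 14.4 CPM; ratio 5923, 1063 to 234006). Intervals and floors cover counting error only. The 5 called genes with 0 control reads and most reads under DTT were AO090012000674 (739 and 8 reads, at least 264-fold higher), AO090103000214 (291 and 274 reads, at least 199.6-fold), AO090023000096 (483 and 16 reads, at least 176-fold), AO090010000721 (154 and 225 reads, at least 134-fold) and AO090701000430 (303 and 60 reads, at least 128-fold). In all, 23 risers had 0 reads in both controls and 56 had at most 3. The call of AO090120000504 was lost without control replicate 2 (edgeR adjusted p = 0.0585), that of AO090012000674 without control replicate 1 (0.102), DTT replicate 1 (0.130) or control replicate 2 (0.110) and that of AO090023000096 without control replicate 1 (0.0712) or 2 (0.0810).

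Among fallers without a symbol, AO090026000299 went from 124 and 87.6 to 0.452 and 0.422 CPM (-7.88 ± 0.68), AO090026000355 from 46.6 and 112 to 0.226 and 0.317 CPM (-8.05 ± 0.75) and AO090038000471 from 119 and 286 to 0 and 1.37 CPM (-7.95 ± 1.21). With 753 reads over both controls AO090023000386 kept 2 under DTT, a ratio of 355 with an exact 95% binomial interval of 98.0 to 2939. In these 4 genes both control libraries were more than 20 CPM and both DTT libraries lay far below, at 13 reads or fewer, and all 4 were called in each fit without 1 library. Genes with 0 reads under DTT numbered 40 among the fallers. Those with most control reads were AO090038000214 (19 and 125 reads, at least 45.3-fold lower), AO090113000029 (85 and 39 reads, at least 39.0-fold), AO090102000281 (53 and 48 reads, at least 31.8-fold), AO090023000072 (37 and 36 reads, at least 23.0-fold) and AO090103000355 (44 and 20 reads, at least 20.1-fold). The call of AO090038000214 was lost without control replicate 2 (edgeR adjusted p = 0.0605), that of AO090102000281 without control replicate 1 (0.0595) and that of AO090103000355 without control replicate 1 (0.115), DTT replicate 1 (0.0838) or DTT replicate 2 (0.102).

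In absolute level, the largest gain among protein-coding genes was in AO090120000112, which missed the test. It stood at 4390 and 3765 CPM in the controls and at 39843 and 8761 CPM under DTT (2.58 ± 0.99, edgeR adjusted p = 0.0968; 0.0455 without DTT replicate 2). Next after AO090010000722 came AO090020000424, from 82.1 and 38.6 to 17034 and 3134 CPM (7.39 ± 1.20), AO090023000260, from 308 and 12.9 to 13798 and 6155 CPM (5.96 ± 1.48) and AO090003000310, from 843 and 97.4 to 15248 and 4283 CPM (4.38 ± 1.28). Each of these was highest in DTT replicate 1. Beside aspf2 and zrfC the largest losses that passed the test were in AO090011000336, from 13414 and 9096 to 1171 and 2179 CPM (-2.75 ± 0.84), and AO090010000640, from 8838 and 3426 to 356 and 526 CPM (-3.80 ± 1.13). In AO090102000558 (13436 and 928 against 689 and 159 CPM, adjusted p = 0.126) and AO090003000383 (8978 and 508 against 800 and 21.5 CPM, adjusted p = 0.229) the 2 control libraries lay far apart, and in the block fit their edgeR adjusted p were 0.0129 and 0.00948. The call of AO090023000260 was lost without DTT replicate 1 (0.0656) or control replicate 2 (0.0588), and that of AO090003000310 without control replicate 1 (0.0500218), DTT replicate 1 (0.132) or control replicate 2 (0.154). AO090011000336 (0.0817 to 0.173) and AO090010000640 (0.0735 to 0.174) lost theirs in each fit.

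Some called genes lay side by side. In the gene order of the reference, 307 of the 841 risers were in 133 runs of at least 2 neighbouring genes that all rose, and 312 of the 1044 fallers in 136 runs that all fell. Runs of at least 4 numbered 12 upward, with 50 genes, and 7 downward, with 30. In the longest upward run AO090003000248 went from 0.535 and 1.75 to 638 and 137 CPM (8.31 ± 1.005) and AO090003000250 from 6.07 and 1.21 to 1043 and 243 CPM (7.50 ± 1.23), and AO090003000247, AO090003000249 and AO090003000251 rose with them. In a further run of 5, AO090010000650 to AO090010000646, all genes stayed under 30 CPM, and AO090010000647 had 0 reads in the controls and 13 and 22 under DTT, at least 12.4-fold higher. Run lengths were not tested, and the number of runs to be expected with called genes placed at random was not worked out.

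Downward, AO090102000026, AO090102000025, AO090102000024, AO090102000022 and AO090102000021 fell together, AO090102000022 from 80.5 and 52.1 to 2.26 and 2.75 CPM (-4.70 ± 0.64) and AO090102000021 from 25 and 22 reads to 0, at least 14.8-fold lower. The genes AO090124000054 to AO090124000050 fell by less, with log2 changes between -1.50 ± 0.43 and -3.32 ± 0.58 (AO090124000052, from 227 and 118 to 11.3 and 22.9 CPM). Among runs of 4, AO090010000722 stood beside AO090010000721, AO090010000720 and AO090010000719, and all 4 of these also rose in solid culture. In the 4 runs of 5, the genes called in each fit without 1 library were AO090003000248, AO090003000249, AO090003000250, AO090102000022, AO090102000021 and AO090124000052. The other 14 lost their call in 1 or more of these fits, with edgeR adjusted p up to 0.252, the value of AO090003000251 without DTT replicate 1, and that gene was also not called with the insert size as a block (0.0579).

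**Figure D5:**
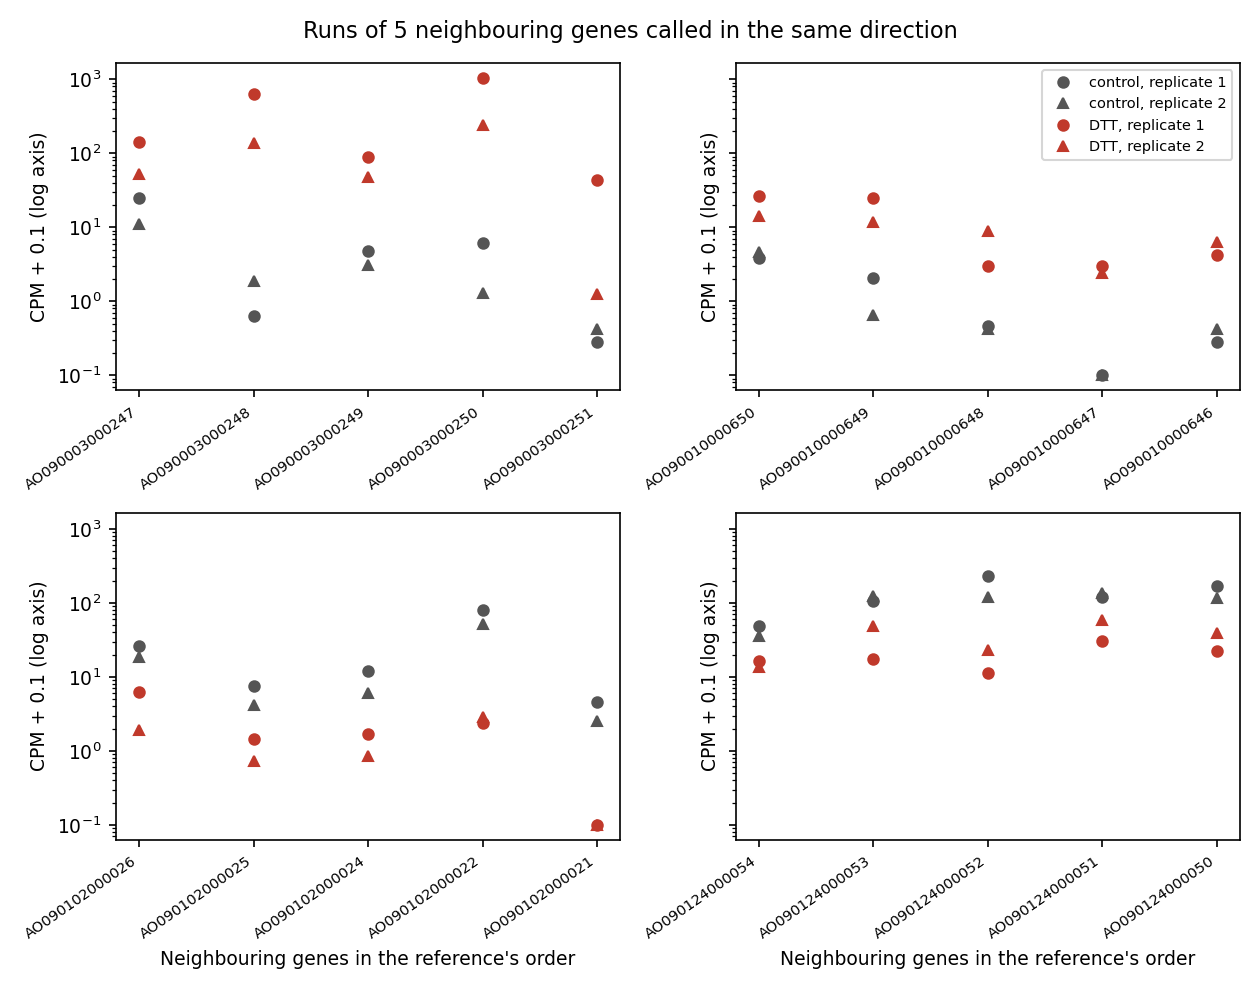
Level in each liquid library (CPM plus 0.1, log scale) of the genes in the 4 longest runs of neighbouring called genes, in the reference's order along each horizontal axis. In the 2 upper panels both DTT libraries (red) lie above both controls (grey) in each gene, and in the 2 lower panels they lie below. Such separation held for every called gene.

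The genes called in liquid culture mostly had a solid log2 change of the same sign. The solid libraries gave no value to the liquid fold changes, but they were part of the same fit and its estimate of spread, and a fit of the 4 liquid libraries alone called 902 genes, 889 of them among the 1885. Of the 841 risers in liquid culture, 792 (94.2%) had a solid log2 change above 0, against 48.2% of all genes tested, and 964 of the 1044 fallers (92.3%) had one below 0, against 51.8%. The median solid change was 1.75 for the risers and -1.39 for the fallers, and -0.05 over all genes tested. In solid culture itself 459 genes rose (4.86% of genes tested) and 419 fell (4.44%). The risers shared by both cultures numbered 273, which is 32.5% of the liquid and 59.5% of the solid risers, and the shared fallers 247, which is 23.7% and 58.9%. Among the examples above, atrF stood at 5.23 in liquid and 5.44 in solid culture, sC at -3.98 and -3.88, aspf2 at -4.33 and -4.30 and bipA at 4.16 and 3.54.

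Where the cultures differed was tested as the difference of their DTT effects. By edgeR's quasi-likelihood test no gene was called, 1003 had an unadjusted p under 0.05, DESeq2 called 204 and the fit with the insert size as a block 23 (0.244% of genes tested). Without liquid DTT replicate 2 edgeR called 7. Only sit1 was called in opposite directions: it rose in liquid culture as given above and fell in solid culture by 3.61 ± 0.51, from 499 and 340 to 38.4 and 30.4 CPM. The adjusted p of that difference was 0.0799, and 0.0269 with the block. Under the block, AO090026000355 and AO090023000386, which fell to a few reads in liquid culture, also differed: in solid culture the former fell by 1.95 ± 0.52 on the log2 scale and the latter, not called there, stood at -0.98 ± 0.57. The gene AO090023000688 went from 1.07 and 0.877 to 478 and 108 CPM in liquid culture (8.22 ± 0.86) and stood at 0.84 ± 0.61 in solid culture. The control level of AO090023000688 in solid culture, a mean of 48.4 CPM, was above that in liquid culture.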

How the data were processed

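RNA was read as 44 bp pairs. Per the file headers, the values that the authors deposited are mapped reads per gene, taken as raw counts, and a covered fraction per gene, which served only to look for genes covered without counted reads. A gene that a library's file does not list was given 0 reads. The sources used here give neither the aligner, the genome build, the strand nor the handling of reads that map to several genes, so overlapping, antisense and near-identical genes are uncertain. All 11880 locus tags matched the RefSeq table of assembly ASM18445v3 (12347 genes, 714 with a symbol), used for names and gene order only. Depths are in the report.

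Counts were tested with edgeR 4.0.16 (R 4.3.3): filterByExpr (minimum count 10) kept 9438 genes, TMM factors were 0.73 to 1.25, and all 8 libraries entered 1 quasi-likelihood fit with a term for each condition, leaving 4 residual degrees of freedom, which pools the spread over conditions (also where a library was left out and a condition kept 1). Each SE is the log2 change divided by the root of F. The common dispersion gave a biological coefficient of variation of 0.47 (0.36 in the block fit). DESeq2 1.42.0 was an alternative. The procedure was tested on simulated counts. Replicate numbers pair libraries by insert size, per the labels, and differences between replicates correlated across conditions at 0.24 to 0.51. The main fit, which gave every call, SE and adjusted p not marked otherwise, has no term for this pairing. Only the block fit has one. Block values are printed where they alter the call of a gene named with values or shift a tally more than 1.5 times. The paired libraries within each liquid condition differed by more than sampling of reads allows (chi-square over its degrees of freedom, 166 and 230).

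A fold against 0 reads is a bound against 3 reads over both libraries; with 1 to 3 reads a ratio is given with its exact interval. Members and lists were chosen with earlier results of these data known. Named were the 15 largest rises and falls without a symbol, 12 with one, both with the same direction in all pairs and at least 20 CPM, the 8 largest gains and losses in CPM, 5 genes with 0 reads in each direction, members of the 4 longest runs of at least 4 genes, and up to 4 members of each list by smallest p (all of lists up to 5). Further members and genes outside this rule were named after their values were seen, such as AO090023000688 and pyr2. Of 38 lists, assigned by hand from symbols, 5 were added after the symbols and 3 after the values were seen. Protein and promoter features could not be examined, since no sequence was used here.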

Additional observations from a re-analysis of the deposited data

Results flagged for a closer look

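Among the 149 genes called in liquid culture that were named by rule or were members of a list, 3 had both DTT libraries on one side of both controls in liquid culture and on the opposite side in solid culture. Genes outside these were not searched, and the block fit called the difference between the cultures in others whose changes had opposite signs, such as AO090001000262, at -3.28 ± 0.52 in liquid and 1.41 ± 0.46 in solid culture. By edgeR's test of the difference between the cultures none of these 3 was called, with adjusted p of 0.0799 (sit1), 0.0885 (fmpC) and 0.220 (AO090011000336), while the block fit gave 0.0269, 0.0396 and 0.0973. The siderophore transporter gene sit1 rose from 42.6 and 65.9 to 354 and 370 CPM in liquid culture and stood at 499 and 340 against 38.4 and 30.4 CPM in solid culture. The gene fmpC went from 0 reads to 16.3 and 18.9 CPM in liquid culture and stood at 0.688 and 0.632 against 0.163 and 0.180 CPM in solid culture, where 3 reads were worth 0.270 to 0.516 CPM. The gene AO090011000336 fell from 13414 and 9096 to 1171 and 2179 CPM in liquid culture and stood at 691 and 257 against 2333 and 1806 CPM in solid culture.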

How the results depend on the processing

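The count of 1885 genes became 2984 with the replicate block and 902 in a fit of only the 4 liquid libraries, where fewer samples estimate the spread, and lay between 614 and 1581 when 1 library was left out. It was 1867 with RLE size factors (875 up, 992 down), 1879 without rRNA genes, 2050 with no filter on low counts and 2517 by DESeq2. The count of 0 for the difference between the cultures became 23 with the block, 26 with no filter and 204 by DESeq2, and lay between 0 and 7 when 1 library was left out. Leaving out a library moved the share of rises among calls from 44.6% to between 27.7% and 59%. Of 149 called genes that were named or members of a list, 148 were called with the block, 142 with RLE, 97 in the fit of 4 libraries and 58 in all 4 fits without 1 library. No called gene among them changed direction under any alternative run. The medians of 3 or 4 of the 38 lists changed sign without 1 library, and none did with the block or RLE. The causes were not tested. With 2 libraries per condition the smallest called change was 1.22 on the log2 scale (the block fit called smaller ones, such as sec11 at 0.93), and 2442 listed genes had too few reads to be tested.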
